A study of Mus musculus with 8 samples.

Results

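The G1 regulators described here are 10 mouse genes that control entry into S phase or are controlled during it: the D-type cyclins Ccnd1, Ccnd2 and Ccnd3, the E-type cyclins Ccne1 and Ccne2, the CDK inhibitors Cdkn1a, Cdkn1b, Cdkn1c and Cdkn2c, and the transcription factor Myc. Every probe whose symbol in the platform's probe-to-gene table was one of these names was taken, which gave 20 probes for the 10 genes among 16590 genes with a probe. All 10 were among the 8885 genes that entered the test, which asked for detection of the probe on 2 or more arrays. The study asked whether mouse fibroblasts respond to signals that cardiomyocytes release into their culture media. NIH 3T3, an immortalized line of mouse embryo fibroblasts, was incubated for 24 h, and labelled cRNA made from its total RNA was hybridized to Illumina MouseRef-8 bead arrays.

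The unused media group (3 arrays) received Claycomb media, the growth media of HL-1 cells, that had not been on any cells. The cardiomyocyte media group (3 arrays) received Claycomb media taken from cultured HL-1 cells, a line derived from a mouse atrial tumour. The media supernatant group (2 arrays) received the supernatant left after such cardiomyocyte media had been ultracentrifuged for 2 h to pellet small vesicles. The paper describes spins at lower speed before this step to clear cell debris. Supernatant and cardiomyocyte media may thus differ in more than small vesicles. All 3 groups therefore had Claycomb media, and no array of NIH 3T3 cells in their own growth media or in centrifuged unused media was analysed here. NIH 3T3 is 1 established line, so the data hold no primary cardiac fibroblast, and it is not stated whether the wells came from separate experiments. P-values therefore cover no more than the spread of these 8 arrays. The labelled cell type was checked against its markers. Of 11 fibroblast markers on the array 11 were detected on all 8 arrays. Of 15 cardiomyocyte markers 8 were detected on 2 or more arrays, 1 of them on all 8. The other 7 were detected on no array, Nppb, Tnni3, Actc1, Ryr2, Pln, Sln and Ttn. The summed signal of the cardiomyocyte markers was 307.8 to 478.7 in unused media, 365.9 to 377.9 in cardiomyocyte media and 255.3 to 308.3 in supernatant. None of the 8 that were tested was called in any comparison.

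In G1, D-type cyclins bind CDK4 and CDK6 and E-type cyclins bind CDK2, and both complexes phosphorylate the retinoblastoma protein, which releases E2F factors to switch on genes of DNA replication. Cyclin D1 rises with growth factor signals such as ERK and is a classic early response of serum-stimulated NIH 3T3 cells. The CIP/KIP inhibitors p21 (Cdkn1a), p27 (Cdkn1b) and p57 (Cdkn1c) bind cyclin-CDK complexes, the INK4 inhibitor p18 (Cdkn2c) binds CDK4 and CDK6 alone, p21 is a direct target of p53, and MYC drives growth genes and represses Cdkn1a.

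The 8 arrays lay on 2 chips. Chip 1 held the 3 unused media arrays, cardiomyocyte media replicate 1 and media supernatant replicate 1, and chip 2 held the other 3 arrays. Background was 90.5 to 95.1 fluorescence units on chip 1 and 48.1 to 49.4 on chip 2, and 10545 to 11758 probes were detected per array. Unused media replicate 3 stood apart with a standard error over its beads of 9.67% of the signal, against 4.07% to 5.09% on the other arrays. Between arrays, Pearson's r over the tested genes was 0.949 to 0.989, and no 2 arrays held identical values.

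Promoter sequences are shown for the 2 members that changed with cardiomyocyte media and have a window in the RefSeq table, and for Ccne1 as an E-type cyclin. The table (build GRCm38.p6, 250 bases before to 50 after each annotated start) held 8 windows of 5 members among 32851 promoters, and none for Ccnd1, Ccnd2, Ccne2, Cdkn1c or Myc. In the sequences below, read 5′ to 3′ on the gene's strand, the capitals mark GC boxes (GGGCGG or its reverse complement) and, in the first one, a pair of p53 half-site cores (CATGNNNNNNCATG).
Cdkn1a upstream start, chr17:29090729-29091028, plus strand: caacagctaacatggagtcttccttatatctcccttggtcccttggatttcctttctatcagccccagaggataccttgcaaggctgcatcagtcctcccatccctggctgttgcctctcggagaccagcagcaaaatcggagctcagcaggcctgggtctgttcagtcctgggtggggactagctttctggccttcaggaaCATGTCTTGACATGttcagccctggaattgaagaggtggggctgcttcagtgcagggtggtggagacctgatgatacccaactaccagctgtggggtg
Cdkn1a downstream start, chr17:29093519-29093818, plus strand: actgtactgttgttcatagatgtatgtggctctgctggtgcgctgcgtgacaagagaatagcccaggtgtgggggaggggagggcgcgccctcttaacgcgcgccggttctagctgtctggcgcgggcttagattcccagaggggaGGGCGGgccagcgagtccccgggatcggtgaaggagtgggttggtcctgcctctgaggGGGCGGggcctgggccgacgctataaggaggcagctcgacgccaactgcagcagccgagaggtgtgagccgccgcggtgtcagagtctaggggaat
Ccnd3 downstream start, chr17:47593217-47593516, plus strand: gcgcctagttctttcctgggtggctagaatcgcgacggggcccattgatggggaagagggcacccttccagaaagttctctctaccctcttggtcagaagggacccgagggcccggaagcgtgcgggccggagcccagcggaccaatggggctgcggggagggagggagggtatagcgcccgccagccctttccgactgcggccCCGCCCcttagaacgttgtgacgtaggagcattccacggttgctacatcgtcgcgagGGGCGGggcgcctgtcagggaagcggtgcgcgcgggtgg
Ccne1, chr7:38107441-38107740, minus strand: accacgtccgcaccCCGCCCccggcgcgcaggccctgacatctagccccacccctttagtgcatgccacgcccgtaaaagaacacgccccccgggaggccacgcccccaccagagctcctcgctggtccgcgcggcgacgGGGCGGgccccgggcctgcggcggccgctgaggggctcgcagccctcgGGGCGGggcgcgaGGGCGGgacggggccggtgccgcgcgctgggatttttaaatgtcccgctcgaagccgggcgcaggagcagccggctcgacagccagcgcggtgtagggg

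The p53 core pair was searched on both strands in every promoter of the table, was found in 0.712% of them, and among the 8 windows lay only in the upstream window of Cdkn1a, beginning 48 bases before the annotated start. This motif was chosen because p53 is known to bind upstream of Cdkn1a. The GC box, the site of SP1-family factors, was in 6 of 8 windows and in 35.7% of all promoters. Of the 3 E2F forms searched on both strands, TTTCCCGC, TTTGGCGC and TTTCGCGC, which together were in 1.84% of promoters, none was in any of the 8 windows. The E box CACGTG, which MYC-MAX dimers bind, was in 1 of 8 windows, that of Cdkn2c at its downstream start, and in 7.15% of promoters. A match in these windows is a description of the sequence only.

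Cdkn1a (p21), the CDK inhibitor that p53 switches on, had the smallest p of the 10 members for cardiomyocyte media against unused media. In fluorescence units, its signal was 990.9, 1174 and 960.3 in the 3 unused media arrays, 304.4, 356.3 and 300.6 in the 3 cardiomyocyte media arrays, and 560.6 and 550.7 in the media supernatant arrays. The 3 groups did not overlap, with supernatant between the others. Cdkn1a fell by 1.65 on the log2 scale with cardiomyocyte media (SE 0.164, limma adjusted p 0.000104), and it kept its call in all 25 alternative settings, with adjusted p at most 0.0151. With chip as a block it fell by 1.68 (adjusted p 0.00045), and within chip 1 the difference was -1.717 (0.0151). In bulk RNA, fewer cells that carry a transcript and less of it per cell cannot be told apart. Against unused media, 2 of the 10 members were called lower with cardiomyocyte media, Cdkn1a and Ccnd3, and 0 higher, where over all 8885 tested genes 4.4% were called lower and 4.03% higher.

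All 3 probes of Cdkn1a were lower with cardiomyocyte media than with unused media. On the probe ILMN_2846775 the signal was 264.9, 276.5 and 368.8 in unused media, 69.1, 114.3 and 106 in cardiomyocyte media, and 104 and 149.3 in supernatant. Its log2 difference with cardiomyocyte media was -1.515 (adjusted p 0.00255 over 12013 probes). On ILMN_2846776 it was -1.266 (adjusted p 0.0119), with signals of 85.7 to 114.7 in unused media and 17.6 to 45.4 in cardiomyocyte media. On these 2 probes the supernatant arrays overlapped the cardiomyocyte media arrays, which was not so on the first probe.

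**Figure D1:**
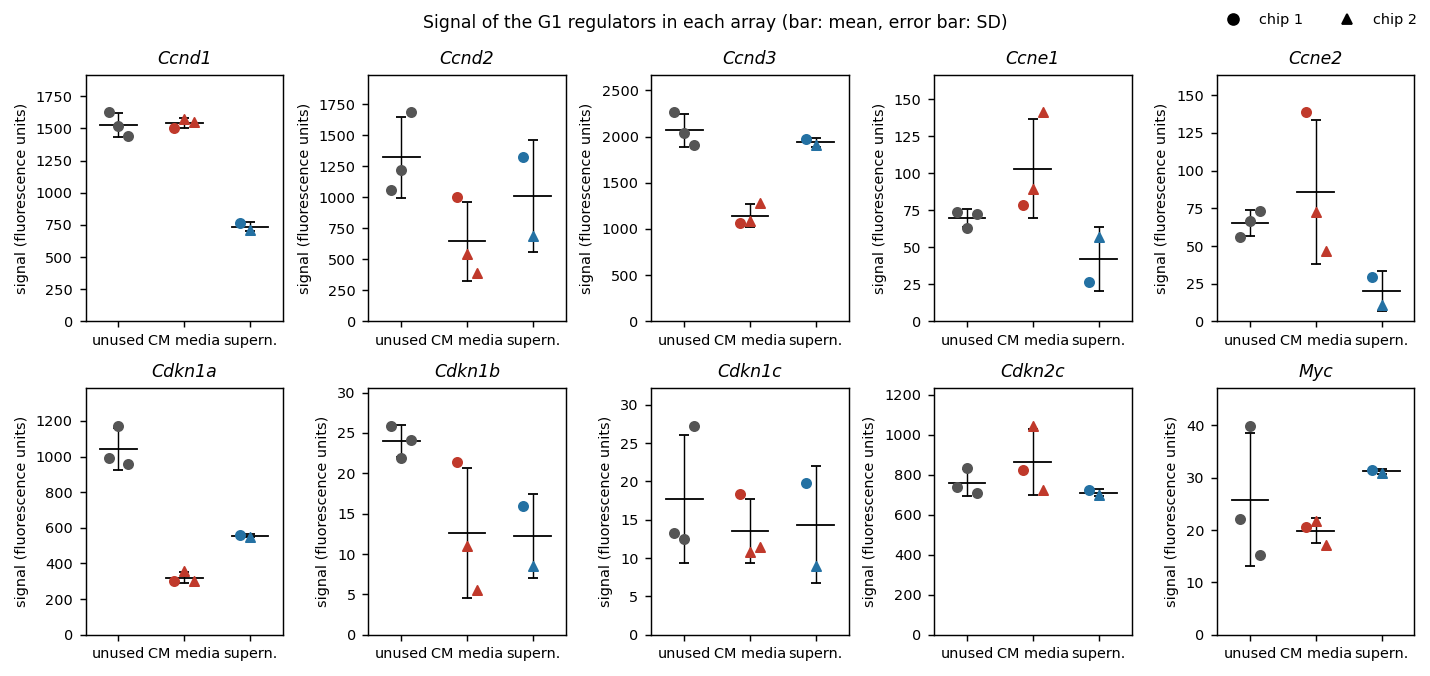
Signal in fluorescence units (vertical axis, from 0) of the probe that stands for each of the 10 genes, by group (unused media, cardiomyocyte media, supernatant); each point is 1 array, circles chip 1 and triangles chip 2, the bar is the mean and the error bar the SD. Ccnd1 is lower only in the 2 supernatant arrays (764.3 and 711), Ccnd3 only in the 3 cardiomyocyte media arrays (1061 to 1284), and Cdkn1a is highest in unused media.

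Cdkn1a was also lower with supernatant than with unused media, by 0.88 on the log2 scale (SE 0.183, adjusted p 0.0321). The 2 arrays were both below all 3 unused media arrays. On the other 2 probes the difference was -1.167 and -0.8591 (adjusted p 0.0501 and 0.245), and neither passed. Of the 10 members, 2 were called lower in this comparison, Ccnd1 and Cdkn1a, and 0 higher, where 1.45% of all tested genes were called lower and 0.732% higher. With chip as a block the fall of Cdkn1a was 0.91 (adjusted p 0.0379), and within chip 1 it was 0.87 (adjusted p 0.334). The call ended in 10 of 25 alternatives. With median scaling the difference was -0.58 (adjusted p 0.5). Among the others it ended without unused media replicate 1, 2 or 3 (adjusted p 0.0847, 0.126 and 0.0596), without cardiomyocyte media replicate 2 (0.0522) and without supernatant replicate 1 or 2 (0.228 and 0.281). Cdkn1a was higher with supernatant than with cardiomyocyte media by 0.77 (SE 0.183, adjusted p 0.0356) on its brightest probe, but by 0.35 and 0.41 on the other 2 (adjusted p 0.658 and 0.62), and the call ended in 14 of 26 alternatives. Leaving out 1 array ended it for every array but unused media replicate 3, with adjusted p of 0.0532 to 0.253 without the others.

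**Figure D2:**
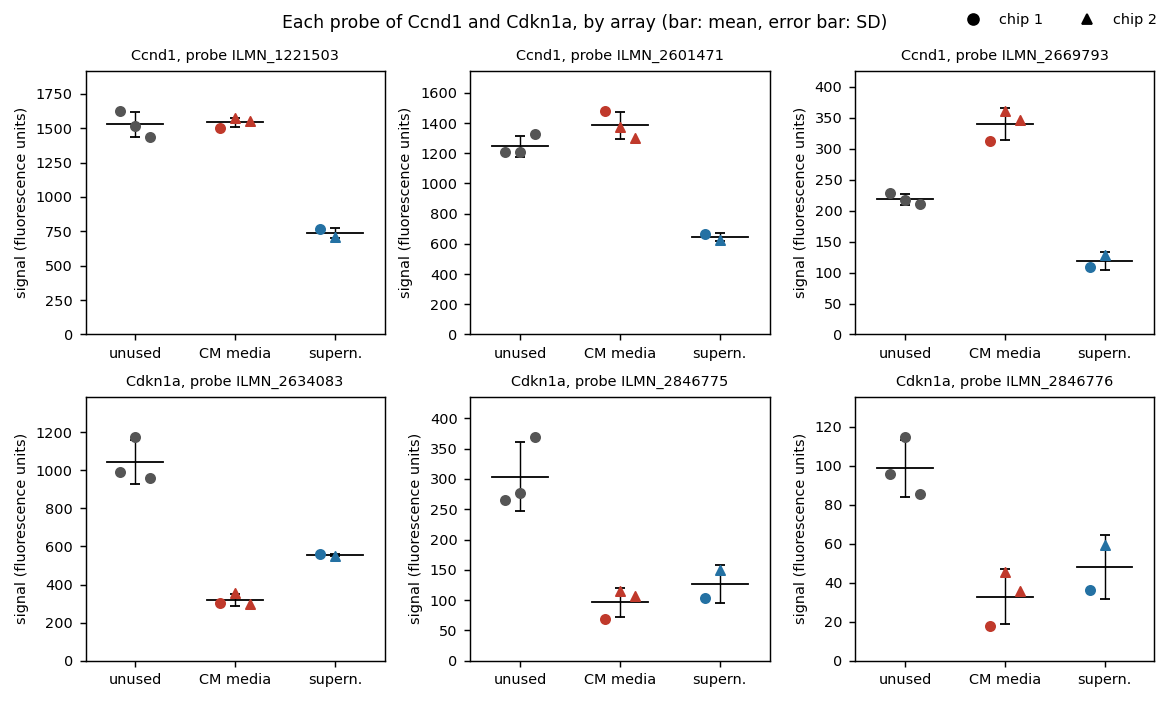
Signal in fluorescence units (vertical axes, each from 0) of the 3 probes of Ccnd1 (top) and the 3 probes of Cdkn1a (bottom) by group, with 1 point per array, circles chip 1, triangles chip 2, bars the mean and error bars the SD. All 3 Ccnd1 probes are lowest in supernatant, the third is also higher in cardiomyocyte media than in unused media, and all 3 Cdkn1a probes are highest in unused media.

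Ccnd1 (cyclin D1), the D-type cyclin that fibroblasts raise on growth factor signals, was lower with supernatant than with either other media. Its signal was 1626, 1517 and 1439 in unused media, 1503, 1571 and 1552 in cardiomyocyte media, and 764.3 and 711 in supernatant. The 2 supernatant arrays were below the other 6 arrays, and the unused and cardiomyocyte media arrays overlapped. Against unused media Ccnd1 fell by 1.03 on the log2 scale (SE 0.171, adjusted p 0.0111), and against cardiomyocyte media by 1.05 (SE 0.171, adjusted p 0.00416). Between cardiomyocyte and unused media the difference was 0.01 with a 95% interval of -0.322 to 0.351 (adjusted p 0.961). This interval is for the brightest Ccnd1 probe alone, and on it a change beyond about 0.35 either way lay outside.

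On both chips Ccnd1 was lower with supernatant than with cardiomyocyte media. Against unused media this could be read on chip 1 alone, since chip 2 held no unused media array. Each value within a chip rests on 1 supernatant array. With chip as a block the fall of Ccnd1 with supernatant was 1.03 against unused media (adjusted p 0.0151) and 1.05 against cardiomyocyte media (0.00236). The difference from unused media within chip 1 was -0.98 (0.218). The difference from cardiomyocyte media was -0.96 within chip 1 and -1.12 within chip 2 (adjusted p 0.308 and 0.0396). The call against unused media ended without supernatant replicate 1 or 2 (adjusted p 0.103 and 0.156), and that against cardiomyocyte media ended without supernatant replicate 2 (0.0637). Scaling the arrays by their medians gave a log2 difference of -0.70 from unused media (adjusted p 0.41) and of -1.001 from cardiomyocyte media (0.099).

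The 3 Ccnd1 probes did not give the same answer for cardiomyocyte media. On ILMN_2601471 the signal was 1206, 1207 and 1326 in unused media, 1481, 1374 and 1301 in cardiomyocyte media, and 663.4 and 624.5 in supernatant. On the dimmer ILMN_2669793 it was 228.2, 217.7 and 210.5 in unused media, 311.9, 361.2 and 346.5 in cardiomyocyte media, and 108.8 and 128.4 in supernatant, and here the groups did not overlap. The difference of cardiomyocyte from unused media was 0.60 on this probe (SE 0.162, adjusted p 0.0539) and 0.15 on ILMN_2601471 (adjusted p 0.601), neither of which passed the test. All 3 probes were lower with supernatant than with cardiomyocyte media, with log2 differences of -1.048, -1.085 and -1.404 (adjusted p 0.00658, 0.00591 and 0.00165). Against unused media the differences with supernatant were -1.033, -0.9351 and -0.8062 (adjusted p 0.0187, 0.03 and 0.0584), so the dimmest probe did not pass.

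Ccnd3 (cyclin D3), the D-type cyclin best known from lymphocytes and muscle, changed the other way round. Its signal was 2263, 2033 and 1905 in unused media, 1061, 1086 and 1284 in cardiomyocyte media, and 1971 and 1905 in supernatant. The 3 cardiomyocyte media arrays were below the other 5, and the supernatant arrays overlapped the unused media arrays. Ccnd3 fell by 0.85 with cardiomyocyte media (SE 0.163, adjusted p 0.00862), and with supernatant the difference from unused media was -0.09 with an interval of -0.49 to 0.313 (adjusted p 0.888). Against cardiomyocyte media it was higher with supernatant by 0.76 (SE 0.182, adjusted p 0.0368).

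With chip as a block the fall of Ccnd3 with cardiomyocyte media was 0.89 (adjusted p 0.0198) and within chip 1 it was 0.95 (adjusted p 0.127). The call ended with median scaling (-0.57, adjusted p 0.292) and with the probes averaged (-0.25, adjusted p 0.334). The other 2 Ccnd3 probes were dim, detected on 6 and 3 arrays, and on them the difference was -0.12 and 0.22 (adjusted p 0.867 and 0.683). The rise with supernatant over cardiomyocyte media was 0.77 with chip as a block (adjusted p 0.0209), 0.88 within chip 1 (0.407) and 0.68 within chip 2 (0.266). That call ended in 14 of 26 alternatives, with adjusted p of 0.0502 without unused media replicate 1, 0.0693 without replicate 2, 0.0706 and 0.122 without cardiomyocyte media replicate 1 or 2, and 0.274 and 0.191 without supernatant replicate 1 or 2.

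Ccnd2 (cyclin D2), the remaining D-type cyclin, had 1 probe and a wide spread. Its signal was 1059, 1222 and 1686 in unused media, 1001, 546.3 and 389.6 in cardiomyocyte media, and 1327 and 691.7 in supernatant. The chip 2 arrays were lower than the chip 1 array of their own group in both cases. The difference of cardiomyocyte from unused media, whose arrays did not overlap, was -1.10 and did not pass (SE 0.341, adjusted p 0.0743). It passed in 4 alternatives, among them without cardiomyocyte media replicate 1 (-1.46, adjusted p 0.00669), the only array of that group on chip 1. With chip as a block the difference was -0.42 (adjusted p 0.408) and within chip 1 it was -0.37 (0.695).

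**Figure D3:**
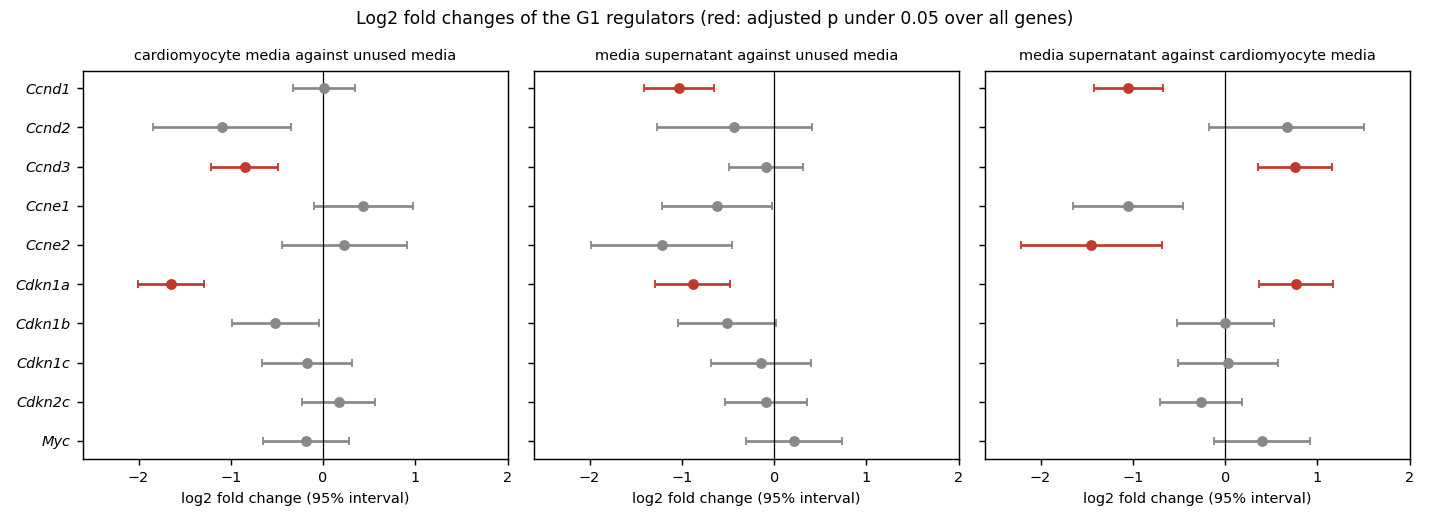
Log2 fold change (horizontal axes) of the 10 genes in each of the 3 comparisons, with bars for the 95% interval of limma's fit; red marks an adjusted p under 0.05 over all 8885 tested genes. Called are Ccnd3 and Cdkn1a in the first comparison, Ccnd1 and Cdkn1a in the second and Ccnd1, Ccnd3, Ccne2 and Cdkn1a in the third.

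The comparison of supernatant with cardiomyocyte media called 4 of the 10 members. Ccnd1 and Ccne2 were lower and Ccnd3 and Cdkn1a were higher, where 3.13% of all tested genes were called lower and 1.76% higher. All 3 comparisons were made between the same 8 arrays, so the supernatant and cardiomyocyte media values share the unused media arrays and are set side by side only.

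The E-type cyclins Ccne1 and Ccne2, the partners of CDK2 at the start of S phase, were both dim. The Ccne2 signal was 55.8, 66.7 and 73.0 in unused media, 138.7, 72.4 and 46.5 in cardiomyocyte media, and 29.4 and 10.6 in supernatant, where replicate 2 was not detected. Both supernatant arrays were below all others, and the cardiomyocyte media arrays were spread around the unused media arrays. Ccne2 was lower with supernatant than with cardiomyocyte media by 1.45 on the log2 scale (SE 0.345, adjusted p 0.0354). The difference was -1.61 with chip as a block (adjusted p 7.45e-04), -1.77 within chip 1 (0.0694) and -1.48 within chip 2 (0.0212). It ended in 10 of 25 alternatives, among them without unused media replicate 1, 2 or 3 (adjusted p 0.06, 0.0616 and 0.0567), without cardiomyocyte media replicate 2 (0.0879), and without supernatant replicate 1 (-1.83, 0.054) or 2 (-1.06, 0.315). Without background correction it was -0.79 and with an offset of 50 it was -0.91, and the call was kept in both.

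Against unused media the Ccne2 difference was -1.22 with supernatant (SE 0.345, adjusted p 0.139) and 0.23 with cardiomyocyte media (SE 0.309, adjusted p 0.676). Neither passed, although with chip as a block the second was 0.85 (adjusted p 0.0491). Ccne1 had signals of 74.1, 63.2 and 72.5 in unused media, 78.8, 89.4 and 141.1 in cardiomyocyte media, and 26.9 and 57.1 in supernatant. Its 3 groups did not overlap, with cardiomyocyte media highest and supernatant lowest. The difference of supernatant from cardiomyocyte media was -1.05 (SE 0.271, adjusted p 0.0513), just over the threshold, and passed in 9 alternatives, among them chip as a block (-0.96, adjusted p 0.0162), without cardiomyocyte media replicate 1 (-1.20, 0.0237) and without supernatant replicate 2 (-1.44, 0.0373). Without supernatant replicate 1 it was -0.67 (0.545) and without background correction -0.62 (0.0559), and within chip 1 and chip 2 it was -1.14 and -0.81 (0.202 and 0.236), none of which passed.

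Cdkn2c (p18), the INK4 inhibitor in the list, was bright and close to level. Its signal was 736.4, 834.8 and 708 in unused media, 824, 1046 and 723.3 in cardiomyocyte media, and 722.3 and 699.3 in supernatant. The differences from unused media were 0.17 with cardiomyocyte media (95% interval -0.226 to 0.565) and -0.09 with supernatant (-0.533 to 0.351). A dimmer second probe read 30.5 to 75.3 in unused media, 71.5 to 145.7 in cardiomyocyte media and 89.1 to 94.4 in supernatant, and neither difference on it passed (0.82 and 0.71, adjusted p 0.113 and 0.441).

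The 2 other CIP/KIP inhibitors and Myc were near background, so little can be said of their levels. The Cdkn1b (p27) signal was 25.9, 21.9 and 24.1 in unused media, 21.4, 11 and 5.54 in cardiomyocyte media, and 15.9 and 8.51 in supernatant, and it was detected on 3, 1 and 0 arrays of the groups. The difference of cardiomyocyte from unused media, whose arrays did not overlap, was -0.52 and did not pass (SE 0.215, adjusted p 0.167). It passed without cardiomyocyte media replicate 1 (-0.73, adjusted p 0.0308), the only array of that group on chip 1. Relative to the mean of unused media, Cdkn1b was -0.0947 in that array and -0.565 and -0.891 in the chip 2 arrays of the group. Unused media lay on chip 1 alone, so without that array group and chip cannot be told apart. With supernatant the level was not above background, and the log2 difference from unused media was -0.51 (SE 0.241, adjusted p 0.435, not called). The interval of limma's fit, -1.04 to 0.0149, did not exclude an unchanged level. The Cdkn1c (p57) signal was 12.5 to 27.3 in unused media, 10.8 to 18.4 in cardiomyocyte media and 8.94 to 19.8 in supernatant, and no comparison was called. The other 2 probes of Cdkn1b were detected on no array.

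Myc, which drives growth genes and is itself an immediate early gene, had signals of 22.1, 40 and 15.3 in unused media, 20.6, 21.7 and 17.2 in cardiomyocyte media, and 31.6 and 30.8 in supernatant on its brighter probe. The unused media arrays spanned both other groups. The differences were -0.18 with cardiomyocyte media, 0.22 with supernatant and 0.40 between the 2 (adjusted p 0.63, 0.758 and 0.51), and the 95% interval of the last was -0.123 to 0.92. Its second probe was detected on no array.

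The division genes were read from 2 lists, 33 tested genes of mitosis and 31 of DNA replication. With supernatant 24 of 33 mitosis genes fell against unused media and 0 rose (median log2 fold change -1.17, against -0.00262 over all genes), and 15 of 31 replication genes fell and 0 rose (median -0.849). These are 72.7% and 48.4% of the lists, where 1.45% of all tested genes were called lower. With cardiomyocyte media 2 mitosis genes rose and 0 fell (median 0.19) and 3 replication genes rose and 0 fell (median 0.178, against -0.0112 over all genes). These rises are 6.06% and 9.68% of the lists, where 4.03% of all tested genes were called higher, and no result is read from them. Among the called genes were Ndc80, a kinetochore protein, which fell by 1.61 with supernatant, and Top2a, the topoisomerase of dividing cells, which rose by 0.99 with cardiomyocyte media.

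Set beside these lists, the 4 called G1 regulators fell into different patterns over the arrays. Relative to the mean of unused media, the mean log2 level of the mitosis genes was 0.195 to 0.245 in the 3 cardiomyocyte media arrays and -1.17 and -1.10 in the 2 supernatant arrays. On its brightest probe Ccnd1 was -0.02 to 0.04 in cardiomyocyte media and -0.98 and -1.08 in supernatant. Its supernatant arrays were thus low as those of the division genes were. Ccnd3 was -0.95 to -0.68 in cardiomyocyte media and -0.06 and -0.11 in supernatant, so it was low in the group in which division genes were not. Cdkn1a was lower than unused media in both groups, -1.73 to -1.5 in cardiomyocyte media and -0.895 to -0.87 in supernatant. Both division lists were below unused media in supernatant only. Ccne2 was -0.37 to 0.94 in cardiomyocyte media and -0.83 and -1.60 in supernatant.

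**Figure D4:**
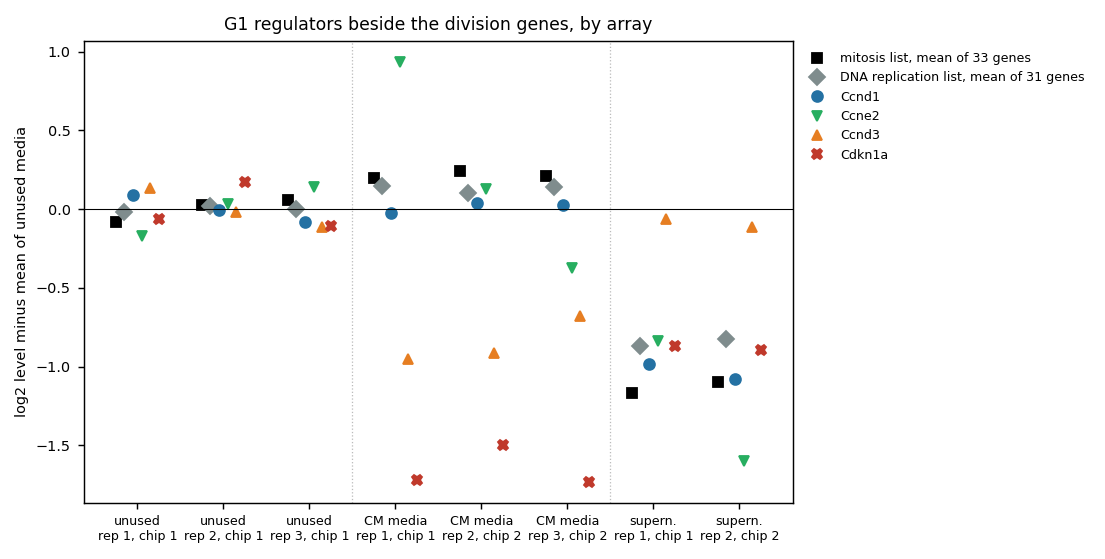
Mean log2 level of the mitosis list (33 genes) and the DNA replication list (31 genes), and the log2 level of Ccnd1, Ccne2, Ccnd3 and Cdkn1a, each minus its mean over the unused media arrays (vertical axis), for the 8 arrays (horizontal axis, with replicate and chip). Ccnd1 lies with the division lists in the supernatant arrays (-0.98 and -1.08), Ccnd3 does not (-0.06 and -0.11), and Cdkn1a is low in both media.

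The genes with the pattern most like each called member were taken by Pearson's r of log2 levels over the 8 arrays, as a description without a test, since the arrays form 3 groups and r mostly reflects them. Those most like Ccnd1 were Ndc80, Cdca2 and Cdc25c (r 0.996, 0.995 and 0.992), and Cdc25c encodes a phosphatase that opens mitosis. Those most like Ccne2 were Mad2l1, Hmgn2 and Metrn (0.972, 0.969 and 0.951). Those most like Ccnd3 were Sytl2, Rab3ip and Mocs1 (0.995, 0.992 and 0.991), and those most like Cdkn1a were Rnf181, Aldh3a1 and Slc1a3 (0.982, 0.98 and 0.974).

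Of 24 tested other G1 genes, 2 were called with cardiomyocyte media, both lower, which is 8.33% of the list where 4.4% of all tested genes were called lower. They were Fbxw7, a ubiquitin ligase subunit that marks cyclin E for breakdown (-1.10, adjusted p 0.0384), and E2f6, a repressor of the E2F family (-0.74, 0.0426). With supernatant E2f2, an activator E2F, fell against unused media (-1.02, 0.0314) and against cardiomyocyte media (-1.33, 0.00354), and Rbl1 (p107), a relative of the retinoblastoma protein, fell against cardiomyocyte media (-0.86, 0.0397). These are 1 of 24 genes lower against unused media (4.17%, with 1.45% of all tested genes) and 2 of 24 against cardiomyocyte media (8.33%, with 3.13%), and 0 rose in any of the 3 comparisons. Cdkn2b, Ccna2 (cyclin A2), Cdk7 and Rbl2 were detected on no array. For these genes an absent transcript and a probe that does not report its transcript cannot be told apart. Cdkn2a, the INK4A and ARF locus that NIH 3T3 cells are known to have lost, read 14 to 25.8 on 1 probe detected on 4 of 8 arrays and was detected on no array on the other.

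Of 11 tested genes of the MYC network, Mxd3 and Bin1 rose with cardiomyocyte media (0.95 and 0.96, adjusted p 0.0339 and 0.0404) and 0 fell, which is 18.2% of the list where 4.03% of all tested genes were called higher. With supernatant 0 were called against unused media. Mxd3, a MAX partner, fell by 1.75 with supernatant against cardiomyocyte media (adjusted p 0.00314), which is 9.09% of the list where 3.13% of all tested genes were called lower. Of 25 tested MYC targets, 2 fell with cardiomyocyte media, Slc19a1 and Tfrc, which is 8% where 4.4% of all tested genes were called lower, and 0 rose. With supernatant 0 of the 25 were called against unused media, and against cardiomyocyte media Slc19a1 was higher (0.84, adjusted p 0.0368) and Ldha lower (-0.81, 0.0286). Each is 4% of the list, where 1.76% of all tested genes were called higher and 3.13% lower. Of 20 tested p53 targets other than Cdkn1a, 4 fell with cardiomyocyte media, Zmat3 (-1.01), Plk2 (-1.08), Polk (-0.68) and Mdm2 (-0.67), and 0 rose, which is 20% of the list where 4.4% of all tested genes were called lower. With supernatant 0 of the 20 fell against unused media and Gadd45a, which encodes a stress protein that also binds p21, rose by 1.24 (adjusted p 0.0369). That rise is 5% of the list, where 0.732% of all tested genes were called higher. Of 16 tested ERK-responsive genes, 3 rose with cardiomyocyte media, among them Junb and Dusp4 (1.496 and 1.16), and 2 fell, Fosl1 and Hbegf (-1.89 and -1.24), which is 18.8% and 12.5% of the list where 4.03% and 4.4% of all tested genes were called. With supernatant Fosl1 fell against unused media (-1.43) and 0 rose, and against cardiomyocyte media 3 fell, Dusp4, Junb and Fos (-1.35, -0.97 and -0.95), and 0 rose. These falls are 6.25% and 18.8% of the list, where 1.45% and 3.13% of all tested genes were called lower. Of 11 FOXO factors and targets, Fbxo32 rose in both comparisons with unused media (1.14 and 1.26) and Bcl2l11 with cardiomyocyte media (0.99), and 0 of the 11 fell. The rises are 18.2% of the list with cardiomyocyte media and 9.09% with supernatant, where 4.03% and 0.732% of all tested genes were called higher.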

How the data were processed

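Gene expression was measured on 8 Illumina bead arrays, grouped by their sample labels: unused media (3), cardiomyocyte media (3) and media supernatant (2). The deposited intensity of each probe, on a linear scale and not yet normalized, and its detection p-value came from BeadStudio, for which the submitters' notes give version 3.3. A second table that the authors deposited, background-subtracted and normalized by cubic spline, served only as an alternative. In R 4.3.3 with limma 3.58.1, background was estimated from the detection p-value and removed by normexp. With an offset of 16, values were then log2 transformed and quantile normalized across arrays. Signals given are normalized values after removal of the offset. Of 25697 probes, 23978 had 1 gene name and 1719 had none. A probe was kept if its detection p-value was under 0.05 on 2 or more arrays, and a gene with several was represented by the one of highest mean.

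A linear model with 1 coefficient for each group was fitted to all 8 arrays, with limma's moderated test, and p-values were adjusted by Benjamini-Hochberg over 8885 genes. Calls were made at an adjusted p under 0.05. How many of all tested genes had groups without overlap was not counted, so overlap is given as a description only. Levels carry no depth, and the number of arrays, 2 for supernatant, limits the precision. Values within 1 chip rest on 1 array in some groups, which was assumed to vary like the others. The labels do not say that replicate numbers pair arrays, and same-numbered arrays did not deviate together in every pair, so no replicate block was used. The fit was tested on simulated data. The genes named are all probes of the 10 members, for each other list and comparison up to 4 genes of smallest p, and the 3 genes most like each called member. Genes named only because they were not detected, and the p53 motif, were chosen after their values were seen. The members and lists were chosen with earlier results of these data known. Lists are described by counts and medians. Settings for background, normalization, filter, probes, weights, chip, replicate and left-out arrays were tried as alternatives, and chip 2 alone was added after the data were seen. Promoters were taken from RefSeq by symbol.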

Additional observations from a re-analysis of the deposited data

Results flagged for a closer look

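The effects of cardiomyocyte media and of media supernatant, both set against unused media, differed for 4 members by limma's direct contrast of the 2 treated groups. Supernatant minus cardiomyocyte media was -1.05 on the log2 scale for Ccnd1 (adjusted p 0.00416), 0.76 for Ccnd3 (0.0368), -1.45 for Ccne2 (0.0354) and 0.77 for Cdkn1a (0.0356). Groups of 3 or fewer arrays were not searched for single arrays that stand apart.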

How the results depend on the processing

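All 8 called values kept their direction in every alternative, and the fall of Cdkn1a with cardiomyocyte media kept its call in all 25. In all, 145 of the alternative values of called members kept the call and 58 lost it. The 2 supernatant arrays limit both supernatant comparisons. Chip 2 held no unused media array. Without cardiomyocyte media replicate 1, the cardiomyocyte and unused media arrays lay on different chips, so group and chip cannot be told apart in that fit. Against unused media with cardiomyocyte media, 2 members were called, and 1 with median scaling, probes averaged or chip 1 only and 4 with array weights, with 2 to 4 when 1 array was left out. Genes called there, 749, became 480 with median scaling, 1622 with array weights, 496 with chip as a block and 169 with chip 1 only, and 375 to 1448 with 1 array left out, where cardiomyocyte media replicate 1 gave 1448. With supernatant, the 2 members called became 0 with median scaling or chip 1 only, 1 with the authors' values and 1 with the replicate block, and 0 to 3 with 1 array left out. Genes called, 194, became 63 with median scaling, 97 with the replicate block, and up to 243 with 1 array left out. Chip 1 alone, or leaving out a supernatant array, leaves 1 supernatant array, and almost no call was kept in these fits. Over all arrays and without adjustment, 1055 genes had a limma p under 0.05. Between the treated groups, the 4 members called became 1 with median scaling, the authors' values or the compared groups only, 2 with probes averaged, the replicate block or chip 2 only, 0 with chip 1 only, and 1 to 3 with 1 array left out. Genes called, 434, became 258 with median scaling, 35 with chip 1 only, 241 with chip 2 only, and 159 to 482 with 1 array left out. Same-numbered arrays did not deviate together in every pair (correlations of deviations -0.184 to -0.0921 for pairs with unused media, 0.489 and 0.71 for the treated pairs, each of which also shares a chip), and the replicate block ended 3 of the 8 calls, Cdkn1a with supernatant against unused media (adjusted p 0.0615) and, between the treated groups, Ccnd3 (0.0828) and Cdkn1a (0.0846). Median scaling moved the median of all genes to 0.213 with cardiomyocyte media and 0.26 with supernatant, and the split of 358 higher and 391 lower genes to 369 and 111, that of 65 and 129 to 53 and 10, and that of 156 and 278 to 97 and 161. The cause of these differences was not tested.

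Directions of members that were not called turned as follows. With cardiomyocyte media against unused media, Ccnd1 gave -0.0215 with chip 1 only, and Cdkn1c 0.107 with chip as a block and 0.0551 with chip 1 only. Leaving out 1 array gave -0.0269 to 0.0606 for Ccnd1, -0.122 to 0.532 for Ccne2, -0.285 to 0.0227 for Cdkn1c and -0.368 to 0.0507 for Myc. With supernatant against unused media, Ccnd2 gave 0.0794 with chip as a block and 0.0317 with chip 1 only, Cdkn1c 0.0627 and 0.114 in these fits, Ccnd3 0.233 with median scaling and 0.288 with probes averaged, Cdkn2c 0.236 and 0.311 in those, and Myc -0.00037 with array weights. Leaving out 1 array gave -0.892 to 0.0317 for Ccnd2 and -0.407 to 0.114 for Cdkn1c. Between the treated groups, Cdkn1b gave -0.0044 with an offset of 50, -0.0334 with cyclic loess, -0.0104 with median scaling, -0.0304 with the authors' values, -0.0849 with chip as a block, -0.0369 with chip as a random block, -0.229 with chip 1 only and -0.0897 with the replicate block, and Cdkn1c gave -0.0082, -0.0441, -0.0058 and, with chip 2 only, -0.121 with the authors' values, chip as a block and chip as a random block in that order. Leaving out 1 array gave -0.188 to 0.214 for Cdkn1b and -0.235 to 0.286 for Cdkn1c.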
